A study of Mus musculus with 6 samples.

Results

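The mitochondrial ribosomal proteins are the nuclear-encoded protein components of the ribosome inside mitochondria. They were taken here as every gene on the array whose RefSeq symbol is Mrpl or Mrps followed by a number, which gave 78 of the 20630 gene symbols on the array. Each gene was represented by its brightest probe over the 6 arrays. The samples were interscapular brown adipose tissue (iBAT) from 16-week-old male mice on a C57BL/6 background, 3 labeled control and 3 labeled *ob/ob*, with 1 single-color Agilent array per sample. *ob/ob* mice lack functional leptin, the hormone that fat cells release to restrain feeding, and become obese. The labels give no genotype for the controls beyond the word control and do not say whether each RNA came from a single mouse or a pool, so the p values measure only the spread between these samples, which may be technical. All values are log2 signals of whole tissue after quantile normalization, which gives each array the same distribution of signals. In whole tissue, fewer cells of a type and less RNA per cell cannot be told apart.

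The signals of 2 of the 6 arrays went against their labels. Over all tested probes, control 3 correlated with *ob/ob* 1 and 2 at Spearman's rho of 0.915 and 0.944 and with control 1 and 2 at 0.642 and 0.730, and *ob/ob* 3 correlated with control 1 at 0.858 and with *ob/ob* 1 and 2 at 0.573 and 0.488. *ob/ob* 3 correlated with control 2 at 0.770. Control 3 was thus closer to the other *ob/ob* arrays than to the other controls, and *ob/ob* 3 closer to control 1 and 2 than to the other *ob/ob* arrays. The labels of both arrays may not be right, which was not tested. The labels were kept as given, and every difference of *ob/ob* minus control rests on them, so the members are also described without these arrays.

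The mitochondrial ribosome translates the few messenger RNAs encoded by mitochondrial DNA, all of which specify subunits of the respiratory chain and ATP synthase. Its small subunit decodes the message and its large subunit joins the amino acids, and both are built from mitochondrial ribosomal RNA and proteins imported from the cytosol. Some of the proteins descend from those of the bacterial ribosome, whereas others have no bacterial counterpart. Brown adipocytes are packed with mitochondria, whose respiratory chain drives heat production through uncoupling protein 1. By known function, 51 of the 78 genes encode large-subunit proteins and 26 encode small-subunit proteins. *Mrps18a* and *Mrps30* keep a small-subunit symbol but their products sit in the large subunit. *Mrps36*, the remaining gene, encodes a component of the α-ketoglutarate dehydrogenase complex. A bacterial counterpart is known for 46 of the ribosomal proteins and none for 31.

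No mitochondrial ribosomal protein gene passed the adjusted threshold between *ob/ob* and control iBAT, and for most of them the arrays of a group differed from one another by more than the groups did. Of the 78 genes, 44 were lower and 34 higher in *ob/ob*, beside 57.1% of all 19007 genes tested that were lower. The median log2 fold change, always given as *ob/ob* minus control, was −0.10, and that of all genes was −0.09. With each array scaled to its 75th percentile instead, the medians were −0.09 for the members and −0.30 for all genes, so the members' place relative to all genes turned from slightly below to above. Single members ran from −1.31 to 1.01, and 53 of them changed by under 0.5 on the log2 scale. A change of at least 2-fold was seen in 7 members that were lower, beside 6.47% of all genes, and in 1 member that was higher, beside 6.68%.

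By limma, a linear model that pools the estimate of spread over probes, across all 35448 probes detected on at least 3 arrays, no probe passed an adjusted p under 0.05 (0.0% of probes, lowest adjusted p = 0.15), and 1245 probes (3.51%) had an unadjusted p under 0.05. The t-test that the study's methods name also gave 0 probes after Benjamini-Hochberg adjustment, and limma with a trend over intensity and robust estimates gave 1, which was no member. Among the members, only *Mrps27* had an unadjusted p under 0.05 (1 of 78, beside 3.71% of all genes), and the lowest adjusted limma p of any member was 1.0. Under the methods' t-test the 1 member under the same threshold was *Mrpl57*, which was higher in *ob/ob*. The 95% interval of the limma change included 0 for 77 of the 78 members. It reached 0.74 log2 units to either side for the most precise gene, 1.69 at the median, and 3.56 for the least precise, so changes well over 2-fold could not be detected for most members with 3 arrays per group. An exact two-sided permutation test of a single gene with 3 arrays against 3 cannot go below p = 0.10, and the p values given for single genes are from this test.

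**Figure D1:**
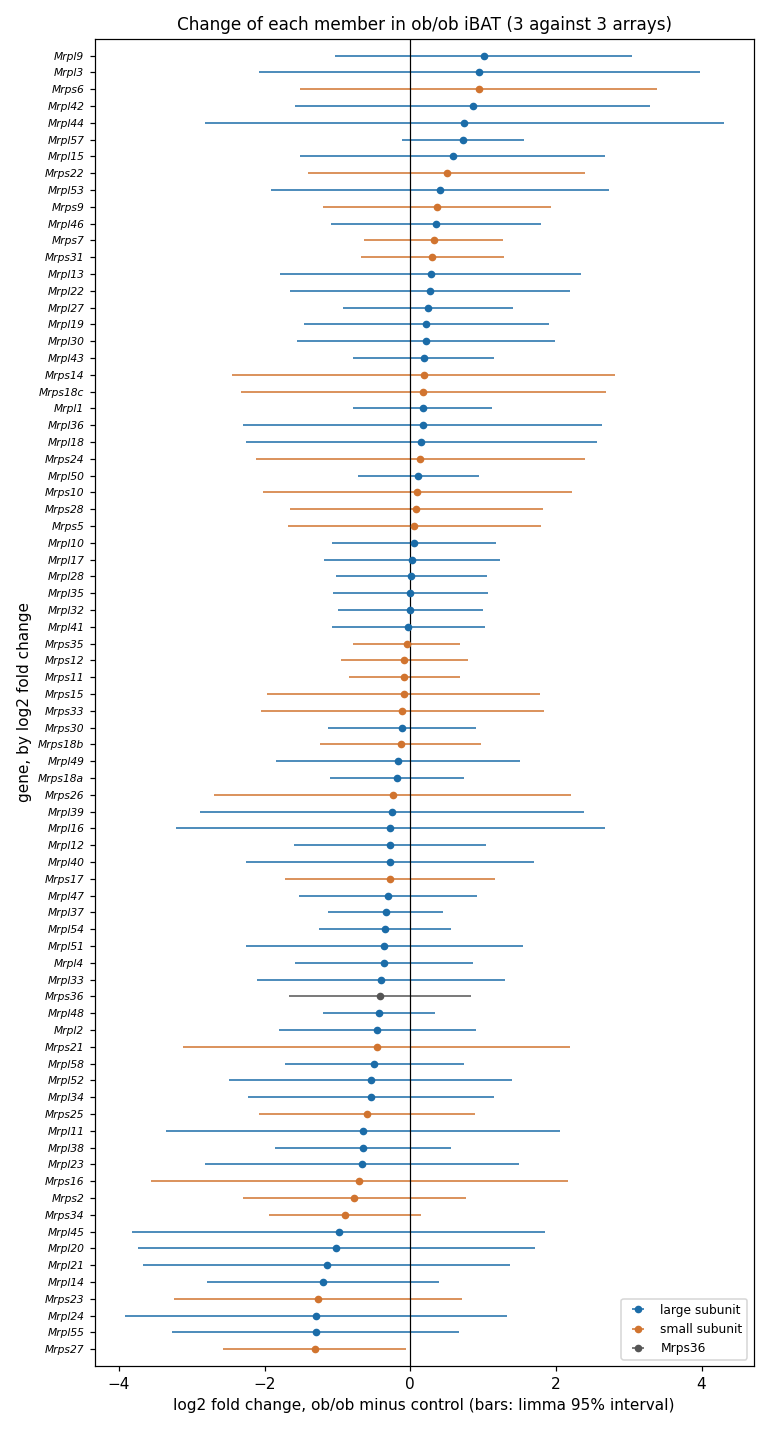
Log2 fold change (horizontal axis, ob/ob minus control) of each of the 78 genes, ordered by its value, with bars for the 95% interval of the limma fit over 3 against 3 arrays and colors for the ribosomal subunit. Points lie on both sides of 0, and the bar of Mrps27 is the only one that does not reach 0.

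Both ribosomal subunits held genes of either sign. Of the large-subunit genes, 28 of 51 were lower in *ob/ob*, with a median log2 fold change of −0.17. Of the small-subunit genes, 15 of 26 were lower, with a median of −0.08. Genes with a bacterial counterpart were lower in 21 of 46, with a median of 0.01, which turned to −0.03 with 75th percentile scaling, and those without were lower in 22 of 31, with a median of −0.19. Both orders turned without control 3 and *ob/ob* 3. The medians were then −1.02 for the large and −1.05 for the small subunit. They were −1.05 with and −0.79 without a bacterial counterpart. The difference between these classes was not tested, because the genes are not replicates of one another.

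*Mrps27* encodes a small-subunit protein with pentatricopeptide repeats, a fold that binds RNA. Its log2 signal was 7.43, 7.79, and 8.27 on control arrays 1, 2, and 3 and 6.93, 7.08, and 5.55 on *ob/ob* arrays 1, 2, and 3. All 3 *ob/ob* arrays lay below all 3 control arrays, with *ob/ob* 3 the lowest of the 6. The log2 fold change was −1.31 ± 0.52 (SE), or 0.403-fold, with an exact permutation p = 0.10, the lowest it can give. The unadjusted limma p of *Mrps27* rose above 0.05 when any 1 array other than *ob/ob* 2 was left out.

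A further 2 members, chosen here after their values were seen, had groups that did not overlap, which made 3 of 78 beside 7.94% of all genes. *Mrpl48*, a large-subunit gene, gave 9.50, 9.29, and 9.57 on the control arrays and 8.75, 9.04, and 9.28 on the *ob/ob* arrays. The *ob/ob* values were lower, with *ob/ob* 3 just under control 2, and the change was −0.43 ± 0.32 (SE; exact permutation p = 0.10). *Mrpl57*, which encodes a small protein of the large subunit, gave 9.43, 8.81, and 9.58 on the control arrays and 10.11, 9.99, and 9.91 on the *ob/ob* arrays. Its *ob/ob* values were close together and all above the controls, with a change of 0.73 ± 0.35 (SE; exact permutation p = 0.10).

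The other members with the lowest fold changes showed a split that ran across the groups. *Mrpl24*, whose product lies near the exit of the peptide tunnel of the large subunit, gave 10.55 and 10.56 on control 1 and 2 but 7.15 on control 3, and 7.78, 7.18, and 9.41 on *ob/ob* 1, 2, and 3. Control 3 was the lowest of all 6 arrays, and *ob/ob* 3 lay above the other *ob/ob* arrays. Its change of −1.30 ± 1.08 (SE; exact permutation p = 0.40) was smaller than the range of 3.41 over the arrays. *Mrpl55*, the mitochondrial relative of a bacterial large-subunit protein, gave 10.97, 10.50, and 8.34 in control and 8.18, 8.08, and 9.66 in *ob/ob* iBAT. *Mrps23*, a small-subunit gene without a bacterial counterpart, gave 11.14, 10.78, and 8.43 against 8.37, 8.41, and 9.78. *Mrpl14*, whose product sits on the face of the large subunit that meets the small one, gave 9.46, 9.23, and 7.63 against 7.15, 7.05, and 8.52. In each of these 3 genes the controls 1 and 2 were highest and control 3 fell among the *ob/ob* arrays. Their changes were −1.30, −1.27, and −1.20, with an exact permutation p = 0.20 for each. A second probe of *Mrps23* gave a log2 fold change of 0.12, the opposite sign to its brightest probe.

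The 5 members with the highest fold changes had the same split, with *ob/ob* 3 above all 3 controls. *Mrpl9*, a conserved large-subunit gene, gave 6.70, 5.58, and 4.10 in control and 6.06, 5.59, and 7.76 in *ob/ob* iBAT. *Mrpl3*, which encodes a conserved protein near the peptidyl transferase center, gave 8.12, 7.66, and 4.70 against 7.29, 6.17, and 9.87. *Mrps6*, a conserved small-subunit gene, gave 8.15, 7.64, and 5.11 against 7.60, 6.72, and 9.39. In all 3 genes control 3 was the lowest and *ob/ob* 3 the highest of the 6 arrays, while *ob/ob* 1 and 2 lay below control 1. The changes were 1.01 ± 0.84, 0.95 ± 1.25, and 0.94 ± 1.01 (SE), with exact permutation p of 0.40, 0.60, and 0.60. *Mrpl42* and *Mrpl44*, both large-subunit genes without a bacterial counterpart, had changes of 0.86 and 0.74. *Mrpl44*, whose product has a fold of the ribonuclease III family, showed the widest spread of all members, at 7.43, 6.56, and 2.91 against 5.76, 4.71, and 8.65. *Mrpl9*, *Mrpl42*, and *Mrpl44* were well above background on 2 of 3 control arrays and on all 3 *ob/ob* arrays. The fourth member that was not well above background everywhere, *Mrpl21*, reached that level on all 3 control and 2 of 3 *ob/ob* arrays. Leaving out control 3 and *ob/ob* 3 together turned the changes of these 5 genes below 0, at −1.76 for *Mrpl44*, −1.16 for *Mrpl3*, −0.79 for *Mrpl42*, −0.73 for *Mrps6*, and −0.31 for *Mrpl9*.

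Members with a known role of their own all gave a permutation p of 0.20 or higher. *Mrpl12*, whose product also binds the mitochondrial RNA polymerase, gave 8.47, 7.93, and 6.76 in control and 7.44, 6.94, and 7.96 in *ob/ob* iBAT (log2 fold change −0.28 ± 0.55, SE; exact permutation p = 0.80). *Mrps12*, a protein of the decoding center, gave 7.66, 7.27, and 7.19 against 7.17, 6.95, and 7.74 (−0.08 ± 0.36; exact permutation p = 0.70). Both genes had overlapping groups, with *ob/ob* 3 near the higher controls. *Mrpl58*, a peptidyl-tRNA hydrolase that frees stalled mitochondrial ribosomes, changed by −0.49 ± 0.51 (exact permutation p = 0.40). *Mrps5*, a conserved small-subunit protein, changed by 0.06 ± 0.72 (exact permutation p = 0.90). *Mrps22* and *Mrps34*, small-subunit genes in which human mutations cause mitochondrial disease, changed by 0.50 ± 0.79 and −0.90 ± 0.43 (exact permutation p = 0.60 and p = 0.20). *Mrps34* gave 9.51, 9.21, and 8.39 in control and 7.90, 7.92, and 8.61 in *ob/ob* iBAT, so the groups overlapped only at control 3 and *ob/ob* 3. *Mrps36* changed by −0.42 ± 0.52 (exact permutation p = 0.50), and its second probe by 0.05.

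**Figure D2:**
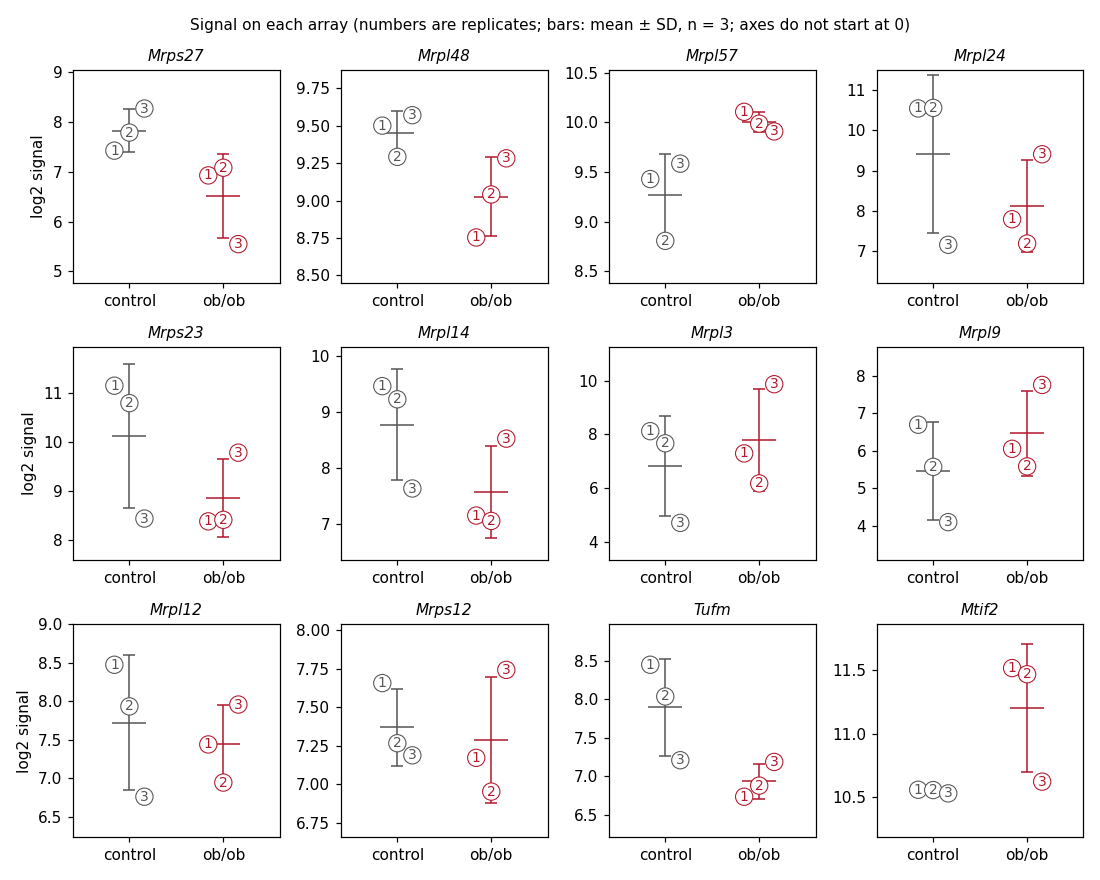
Log2 signal (vertical axis, cut to the range of each gene) on each control and ob/ob array for 10 members and the translation factor genes Tufm and Mtif2, with replicate numbers as points and the mean ± SD of 3 arrays as bars. Mrps27, Mrpl48, Mrpl57, Tufm, and Mtif2 have groups that do not overlap, whereas in Mrpl24, Mrpl3, and Mrpl9 control 3 lies lowest of the 6 arrays.

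Over most of the 78 genes the arrays fell into 1 order, which ran across the groups. After subtraction of each gene's mean over the 6 arrays, the median member was at 0.80, 0.35, and −0.95 on control 1, 2, and 3 and at −0.28, −0.65, and 0.71 on *ob/ob* 1, 2, and 3. The medians of all genes stayed between −0.20 and 0.16. Control 3 was the lowest of the 6 arrays for 51 of the 78 genes (65.4%, beside 19.4% of all genes). Control 3 lay below both other controls and *ob/ob* 3 above both other *ob/ob* arrays for 62 members (79.5%, beside 34.5% of all genes). The reverse order held for 11 members (14.1%, beside 46.7% of all genes). These shares describe 6 arrays and carry no test.

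The 11 genes whose brightest probe had the reverse order were drawn from both subunits and included the gene with the lowest fold change. *Mrps27* and *Mrpl57* were among them, with *Mrpl1*, *Mrpl10*, *Mrpl21*, *Mrpl35*, *Mrpl47*, *Mrps2*, *Mrps7*, *Mrps10*, and *Mrps11*. The second probes of *Mrpl47*, *Mrps7*, and, by small differences, *Mrpl10* had the order of most members instead, whereas that of *Mrps2* kept the reverse order. Conversely, the second probes of *Mrpl4*, *Mrpl43*, and *Mrps18b* had the reverse order and their brightest probes did not. *Mrps10*, a conserved small-subunit gene, gave 9.92, 10.34, and 11.54 in control and 11.76, 11.48, and 8.85 in *ob/ob* iBAT. *Mrpl35*, a conserved large-subunit gene, gave 6.41, 6.62, and 7.34 against 6.99, 7.20, and 6.18. In both genes control 3 and *ob/ob* 1 and 2 were the 3 highest arrays, and their log2 fold changes were 0.10 and 0.00. The spread over the 6 arrays was 0.43 for the steadiest member, *Mrps35*, 2.34 at the median, and 5.74 for *Mrpl44*. The difference between group means exceeded the pooled SD in 9 of the 78 genes.

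**Figure D3:**
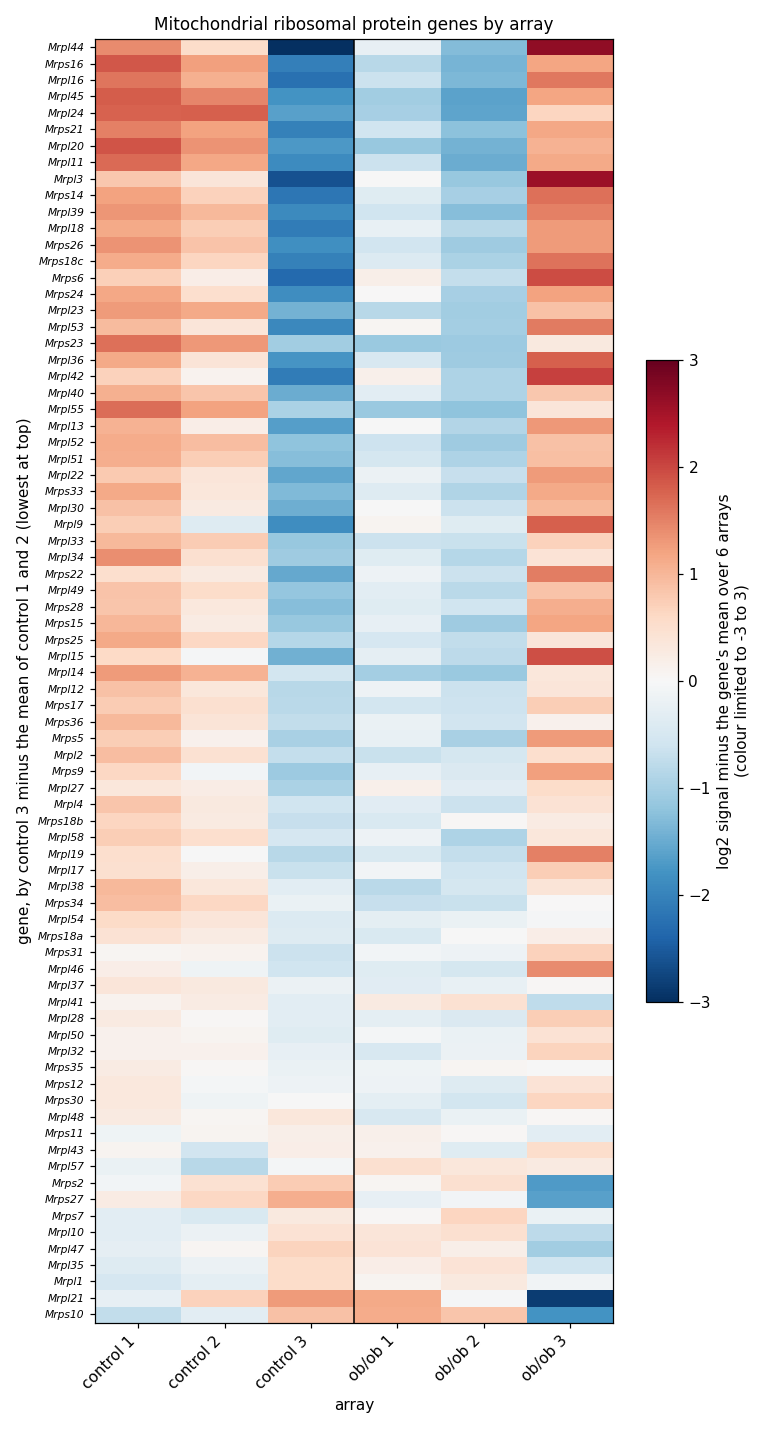
Log2 signal of the 78 genes (rows) on each of the 6 arrays (columns) after subtraction of the gene's mean, with red above and blue below that mean, ordered by how far control 3 lay below control 1 and 2. For most genes control 3 and ob/ob 1 and 2 are below the mean and control 1, control 2, and ob/ob 3 above it, and the 11 genes with the reverse order lie among the lowest rows.

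For 22 members a second probe was tested, and 18 of these probes had the sign of the brightest one, whereas those of *Mrpl10*, *Mrps7*, *Mrps23*, and *Mrps36* had the opposite sign. None of the 22 had an unadjusted limma p under 0.05. Probes of the same gene could order the arrays differently. The brightest probe of *Mrps7*, a conserved small-subunit gene, gave 9.52, 9.39, and 10.13 in control and 9.87, 10.49, and 9.65 in *ob/ob* iBAT, and its second probe gave 9.28, 8.80, and 6.50 against 7.45, 6.95, and 8.75. That second probe had control 3 lowest and *ob/ob* 3 above the other *ob/ob* arrays, which the brightest probe did not. *Mrpl41*, a large-subunit gene without a bacterial counterpart, showed the same kind of disagreement, at 8.32, 8.47, and 7.90 against 8.48, 8.67, and 7.46 for its brightest probe and 9.0, 8.67, and 5.35 against 6.48, 5.41, and 8.57 for the other.

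Promoter sequences of the members are shown because most of the genes moved together over the arrays, and their shares of motifs are given as a description with no test. RefSeq promoter windows on GRCm38.p6, from 250 bases before to 50 after the start of transcription, were matched for 69 of the 78 genes and gave 75 windows of 300 bases. Both strands were searched for exact letters, and overlapping matches of different motifs were counted for each. The ETS-type core CCGGAAG, the kind bound by nuclear respiratory factor 2 (GABP), was present in 26 windows (34.7%), beside 11.6% of the windows of protein-coding genes. The stretches that follow hold it in capitals, on the strand of the gene, with up to 25 bases on each side and ending no later than the start of transcription. They belong to named members at both ends of the fold changes and between. The first 3 read CCGGAAG on the strand of the gene and the last holds it on the opposite strand.
Mrpl3 (chr9:105053224-105053267, + strand): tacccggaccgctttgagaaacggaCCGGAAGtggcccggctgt
Mrpl58 (chr11:115403710-115403751, + strand): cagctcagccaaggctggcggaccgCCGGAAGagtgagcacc
Mrps22 (chr9:98601680-98601715, - strand): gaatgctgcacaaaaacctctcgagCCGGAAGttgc
Mrps27 (chr13:99344713-99344769, + strand): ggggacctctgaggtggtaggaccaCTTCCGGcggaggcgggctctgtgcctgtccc

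The core of nuclear respiratory factor 1 (NRF1), GCGCATGC, was found in 8 windows of 8 genes (10.7%, beside 3.52% of those of protein-coding genes). It is shown in capitals in the same way for *Mrpl9*, the member with the highest fold change, and for *Mrpl22*, whose window also holds the ETS-type core. It is also shown for *Mrpl10*, whose brightest probe, but not its second, had the reverse array order, and which holds the core on the opposite strand.
Mrpl9 (chr3:94443283-94443335, + strand): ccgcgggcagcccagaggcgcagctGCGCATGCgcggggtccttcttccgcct
Mrpl22 (chr11:58171606-58171663, + strand): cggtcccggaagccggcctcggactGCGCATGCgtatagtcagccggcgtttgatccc
Mrpl10 (chr11:97041423-97041480, + strand): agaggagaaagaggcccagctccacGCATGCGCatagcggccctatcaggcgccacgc

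Of the other motifs, that of YY1 (AAGATGGCG) was present in 10.7% of the member windows and 1.83% of those of protein-coding genes. The Sp1 core GGGCGG was present in 52.0% and 46.2%, the cAMP response element TGACGTCA in 2.67% and 2.23%, and the E-box CACGTG in 9.33% and 7.84%. Some genes had several windows, so the 39 member windows with the Sp1 core came from 34 of 69 genes. The 7 with the E-box came from 5 genes. The estrogen-related receptor element TCAAGGTCA was in none of the 75 member windows and in 0.334% of those of protein-coding genes. The member windows had a median GC content of 58.7% and those of protein-coding genes 56.3%. A match is a run of letters and not a measured binding site. The 26 genes with the ETS-type core had a median log2 fold change of −0.16, and those without it −0.08. *Mrpl3* and *Mrps27*, both with the core, were at opposite ends of the fold changes, at 0.95 and −1.31.

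Genes that act with the mitochondrial ribosome were compared in lists of their own. Together, 39 of 62 tested were lower in *ob/ob*, with a median log2 fold change of −0.10, and only *Cars2* had an unadjusted limma p under 0.05 (beside 3.71% of all genes). *Cars2*, the mitochondrial cysteinyl-tRNA synthetase, gave 4.74, 4.27, and 5.22 in control and 5.73, 5.45, and 5.84 in *ob/ob* iBAT. Its *ob/ob* values were all higher, by 0.92 ± 0.37 (SE; exact permutation p = 0.10), and its adjusted limma p was 1.0. The groups overlapped with 75th percentile scaling, where the change was 0.57, and the change was 0.38 with normexp background correction and 0.40 as the mean of the gene's probes. Its unadjusted limma p was above 0.05 in each of these settings, with the replicate block, and without any 1 array other than control 3. The other 17 of the 18 aminoacyl-tRNA synthetases, which charge transfer RNAs, did not pass that threshold, and the 18 had a median of −0.15. Of 11 translation factors, 5 were lower, with a median of 0.01. Of 23 genes for ribosome assembly and ribosomal RNA modification, 14 were lower, with a median of −0.07. All 5 genes for mitochondrial messenger RNA handling and membrane insertion were lower, with a median of −0.49 and no unadjusted p under 0.05, and 4 of the 5 were lower with normexp background correction.

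Single genes of these lists carried both signs. *Tufm*, the elongation factor that brings charged transfer RNA to the mitochondrial ribosome, gave 8.45, 8.04, and 7.21 in control and 6.73, 6.88, and 7.19 in *ob/ob* iBAT. The groups did not overlap, though control 3 and *ob/ob* 3 nearly met, and the change was −0.97 ± 0.42 (SE; exact permutation p = 0.10). *Mtif2*, the initiation factor, gave 10.56, 10.56, and 10.53 against 11.52, 11.47, and 10.62. The *ob/ob* arrays 1 and 2 were about 1 log2 unit above the controls and *ob/ob* 3 barely so, with a change of 0.65 ± 0.37 (SE; exact permutation p = 0.10). With normexp background correction the groups overlapped for *Tufm* and for *Mtif2*, with changes of −0.70 and 0.59. *Gfm1*, the translocation factor, followed the array order of most members, at 9.14, 8.63, and 5.11 against 7.01, 6.45, and 10.78, with a change of 0.45 (exact permutation p = 0.90). *Dap3*, a GTP-binding protein of the small subunit, had the reverse order, at 8.85, 9.04, and 10.58 against 9.58, 10.39, and 7.78, with a change of −0.24 (exact permutation p = 0.90). *Lrpprc*, which stabilizes mitochondrial messenger RNA, changed by −0.47 (exact permutation p = 1.0). *Oxa1l*, the insertase for newly made proteins, changed by −0.76 (exact permutation p = 0.20). *Tfb1m*, which methylates the small ribosomal RNA, changed by 0.20 (exact permutation p = 0.80). The change of *Tfb1m* turned to −0.034 when arrays were scaled to the 75th percentile. None of the 15 listed genes of mitochondrial DNA was among the probes named through RefSeq accessions, so the messages that this ribosome translates were not analysed here.

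The array order was shared by other gene groups, which were compared on the same scale of differences from each gene's mean. The 79 cytosolic ribosomal protein genes, which make up the ribosome outside mitochondria, had medians of 0.82, 0.53, and −1.34 in control and −0.34, −0.96, and 1.23 in *ob/ob* iBAT. Their median log2 fold change was 0.00 (−0.04 with 75th percentile scaling), and 39 of 79 were lower. The 36 subunit genes of respiratory complex I had medians of 1.73, 1.08, and −1.61 in control and −0.90, −1.21, and 0.65 in *ob/ob* iBAT. Of these, 34 were lower in *ob/ob*, with a median of −0.94 (33 and −0.87 with 75th percentile scaling). The difference between complex I and the mitochondrial ribosome was not tested. Without control 3 and *ob/ob* 3, the medians were −2.43 for complex I and −1.36 for the cytosolic ribosomal proteins.

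**Figure D4:**
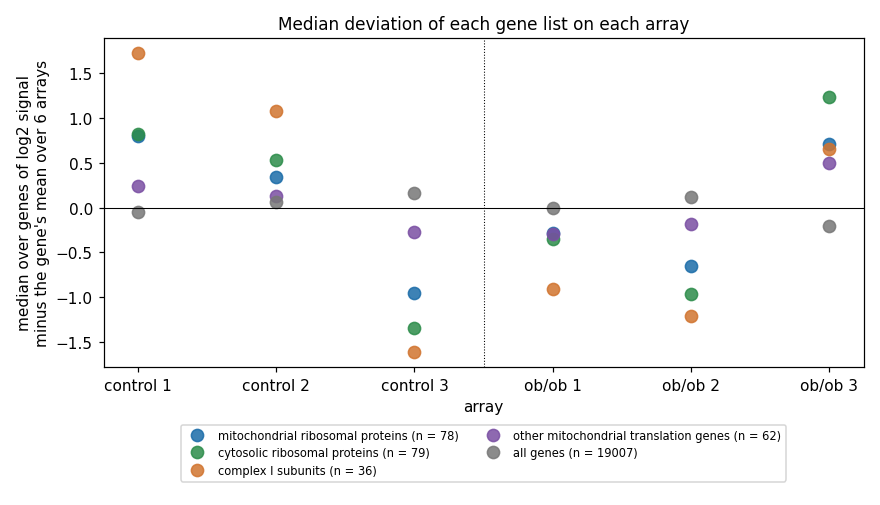
Median over the genes of a list of the log2 signal minus the gene's mean over 6 arrays (vertical axis) on each array (horizontal axis), for the 78 mitochondrial ribosomal proteins, cytosolic ribosomal proteins, complex I subunits, other mitochondrial translation genes, and all genes. The 4 gene lists are above 0 on control 1, control 2, and ob/ob 3 and below 0 on the other arrays, and all genes stay near 0.

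Measures of the arrays and of other cell types are given beside this order, which some of them followed and others did not. The 75th percentile of the unnormalized signal was 292, 235, and 94.5 in control and 134, 165, and 140 in *ob/ob*, so control 3 was the dimmest array but *ob/ob* 3 was not among the brightest. The share of spots well above background was 83.5% on *ob/ob* 3, the lowest, and up to 89.9% on *ob/ob* 1. The median log2 signal of the spike-in control spots before normalization was 4.01 on *ob/ob* 3 and 6.19 to 7.10 on the other 5 arrays, and *ob/ob* 3 was the only array of its scan, as were control 2 and *ob/ob* 2. Of 9 brown adipocyte markers, 8 were detected on all 6 arrays and *Elovl3* on 3, and the summed linear signal of all 9 was 91286, 55463, and 6064 against 4499, 4051, and 12442. All 9 were lower in *ob/ob* (beside 57.1% of all genes), with a median log2 fold change of −2.06. The groups did not overlap for *Elovl3* (9.20, 9.35, and 5.48 against 3.30, 3.92, and 3.29) and *Ppargc1a* (10.06, 9.99, and 7.59 against 5.81, 5.53, and 7.58), with an exact permutation p = 0.10 for each. Of 11 skeletal muscle markers, 9 were detected on all 6 arrays, and the sum of all 11 was 62187, 89596, and 6949 against 1346, 1298, and 172276, with *ob/ob* 3 the highest and *ob/ob* 1 and 2 the lowest. The sum of 5 erythrocyte markers was 12540, 3501, and 1381 against 863, 758, and 32131. That sum was carried by the globin genes *Hbb-bt* and *Hba-a1*, whereas *Slc4a1*, the anion exchanger of red cells, was lowest on *ob/ob* 3, at a log2 signal of 6.81. The sum of 8 lymphocyte markers had the reverse order, at 1530, 1897, and 3838 against 3613, 3681, and 843. *Cd4* made up most of it on control 3 and *ob/ob* 1 and 2, and *Cd8a* and *Cd3e* did not have the reverse order. The median lymphocyte marker was 0.39 above its mean on control 3 and 0.55 below it on *ob/ob* 3. The sums of 8 macrophage markers (6641, 15356, and 4402 against 5207, 4959, and 3347) and of 6 endothelial markers (13629, 13050, and 6947 against 6161, 6696, and 5537) were lowest on *ob/ob* 3. *Itgam*, the brightest macrophage marker on every array, carried the first sum. *Pecam1* made up most of the second on control 3 and *ob/ob* 1 and 2. After subtraction of each gene's mean, the median macrophage marker was highest on *ob/ob* 3, at 0.49. The median endothelial marker was at 1.58, 1.39, and −0.73 against −1.30, −1.35, and 0.53, so this median followed the array order and the sum did not. The sum of 7 white adipocyte markers was 1523, 2147, and 1108 against 1001, 977, and 1512. *Retn* made up most of it on control 1 and 2, and *Lep* and *Nnat* together on *ob/ob* 3. The median white adipocyte marker, after subtraction of each gene's mean, was at −0.12, 0.04, and 0.27 against 0.11, 0.27, and −0.59. This median did not follow the array order. *Lep*, the leptin gene, in which *ob/ob* mice carry a mutation that leaves the message in place, gave 5.74, 4.57, and 5.30 in control and 6.68, 5.83, and 9.33 in *ob/ob*. All 3 *ob/ob* values of *Lep* were above the controls, with a change of 2.07 ± 0.93 (SE; exact permutation p = 0.10). *Lep* thus followed the labels and not the array order. The part of the signal level, of the spike-in signal, of the muscle and blood markers, and of control 3 and *ob/ob* 3 in the results on the members was not tested.

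The members' counts were therefore also taken without those arrays. Without control 3, 65 of 78 members were lower (beside 54.5% of all genes), with a median of −0.59, and *Mrpl14*, *Mrpl20*, *Mrpl24*, *Mrpl55*, *Mrps23*, and *Mrps34* had an unadjusted limma p under 0.05, beside 4.19% of all genes lower. Without *ob/ob* 3, 64 were lower (beside 50.7%), with a median of −0.45, and *Mrpl14* and *Mrps34* passed, beside 4.46%. Without both, 66 were lower (beside 46.7%), with a median of −1.05 beside 0.07 for all genes. In that fit of 2 against 2 arrays, 51 members were lower at an unadjusted p under 0.05, beside 29.8% of all genes, and 6 higher, beside 25.5%. The 6 were *Mrpl1*, *Mrpl10*, *Mrpl35*, *Mrpl57*, *Mrps7*, and *Mrps10*. The adjusted p was under 0.05 for 46 of the lower and 3 of the higher members, beside 49.5% of all genes. Leaving out the arrays that stood apart leaves arrays that were alike within each group, so these counts describe the 4 arrays and give no support to a difference between the genotypes. Within the 1 scan that held control 1, control 3, and *ob/ob* 1, the median member in *ob/ob* 1 was at −0.97 against control 1 and at 0.58 against control 3 (log2 difference).

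**Figure D5:**
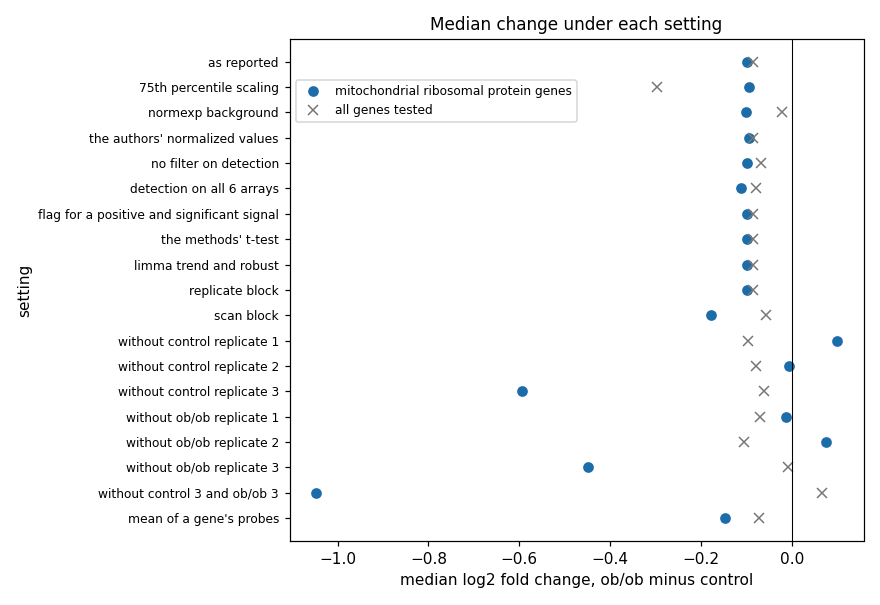
Median log2 fold change (horizontal axis, ob/ob minus control) of the 78 genes and of all genes tested under each way of processing or choice of arrays (vertical axis). The members' median stays between −0.18 and −0.09 in all settings fitted to the 6 arrays, and the −0.18 is that of the scan block. The scan block compares only ob/ob 1 with control 1 and control 3, because every other array was alone in its scan. The members' median rises to 0.10 without control replicate 1 and falls to −1.05 without control 3 and ob/ob 3. With 75th percentile scaling the median of all genes falls to −0.30.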

How the data were processed

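iBAT RNA of 3 control and 3 *ob/ob* mice was hybridized to single-color (Cy3) Agilent mouse arrays, and 1 array was scanned per sample. Per the file headers and the labels, the authors processed the scans with Agilent Feature Extraction (version 11.0.1.1), and the deposited intensity of each spot is corrected for background within the array and not normalized between arrays. The authors also deposited log2 values that were quantile normalized between arrays, used here as an alternative. Their Pearson correlation with the scanner file of the matching array was 0.987 to 0.998.

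Repeated spots were averaged as log2 values, 104 of 39429 probes with outlier flags on all spots of an array were left out, and values were quantile normalized. Probes were named through RefSeq accessions (27174 of 28623 named, GRCm38.p6). A probe was detected where at least 50% of its spots were well above background, and 35448 probes detected on at least 3 of 6 arrays were tested with limma (version 3.58.1, R 4.3.3) and adjusted by Benjamini-Hochberg over all of them. Counts of genes use 1 probe per gene. Tables and figures were made with Python (3.11.15), pandas (2.3.3), numpy (2.4.6), scipy (1.17.1), and matplotlib (3.10.9). The fit was also run on simulated data with known changes and noise drawn independently for each probe. That noise lacks the deviations that probes share on the real arrays, so the check does not cover them. The number of arrays limits the precision.

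The members and lists were chosen with earlier results of these data known. The genes named are members with an unadjusted p under 0.05, the 5 lowest and the 5 highest fold changes, members with a known separate role, listed genes with an unadjusted p under 0.05, and set genes of each list. Alternatives were 75th percentile scaling, normexp background correction, the authors' values, other detection rules, the methods' t-test, limma with trend and robust estimation, replicate or scan as a block, all probes of a gene, and leaving out arrays. Results for single genes of the complex I and cytosolic ribosomal protein lists are not reported here.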

Additional observations from a re-analysis of the deposited data

How the results depend on the processing

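No probe passed the adjusted threshold in any alternative that kept the 6 arrays except limma with trend and robust estimation, which gave 1 (*Impg2*), and without control 3 and *ob/ob* 3 the count was 16259. The 1 member with an unadjusted p under 0.05 became 0 with 75th percentile scaling, with trend and robust estimation, and with the replicate block. The count became 2 with normexp background correction (*Mrps27* and *Mrpl57*) and 57 without control 3 and *ob/ob* 3. When 1 array was left out it was 0 to 6, with 6 without control 3, 2 without *ob/ob* 3, and 0 without control 1, control 2, or *ob/ob* 1. The members' median of −0.10 was −0.18 with the scan block, −1.05 without control 3 and *ob/ob* 3, and −0.59 to 0.10 when 1 array was left out. The scan block compares only *ob/ob* 1 with control 1 and control 3, because every other array was alone in its scan. The cause of these moves was not tested. Deviations of same-numbered arrays from their group means correlated at −0.78, −0.66, and −0.85. Such deviations cancel out within a group, and control 3 and *ob/ob* 3 stood apart in opposite directions. These correlations therefore cannot show whether the replicate numbers paired the samples. With the replicate block, 359 probes had an unadjusted p under 0.05 and 0 passed the adjusted threshold.

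For the 25 named genes, 401 of 447 alternative values kept their direction and side of the adjusted threshold, 13 passed it only without control 3 and *ob/ob* 3, and 33 values in 13 genes reversed. These counts do not cover the unadjusted limma p, which rose above 0.05 for *Mrps27* and *Cars2* in several settings. With 75th percentile scaling *Tfb1m* turned to −0.034. With the scan block *Mrps5* turned to −0.12, *Gfm1* to −0.11, and *Tfb1m* to −0.069. Without control 3 and *ob/ob* 3, *Mrpl44* turned to −1.76, *Mrpl42* to −0.79, *Mrps6* to −0.73, *Mrpl3* to −1.16, *Mrpl9* to −0.31, *Mrps5* to −1.04, *Mrps22* to −0.78, *Gfm1* to −2.16, *Tfb1m* to −0.044, and *Dap3* to 1.04. When 1 array was left out, the ranges of the genes that reversed were −0.76 to 0.10 for *Mrpl12*, −0.31 to 0.087 for *Mrps12*, −1.66 to 0.26 for *Lrpprc*, −0.62 to 1.64 for *Mrpl44*, −0.12 to 1.75 for *Mrpl3*, −0.57 to 0.55 for *Mrps5*, −0.14 to 0.95 for *Mrps22*, −0.90 to 1.27 for *Gfm1*, −0.81 to 0.49 for *Dap3*, and −0.036 to 0.33 for *Tfb1m*. Precision is limited by 3 arrays per group, and 4 members were not well above background on 1 array.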
